A study of Nematostella vectensis with 84 samples.

Results

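Cluster 20 of the authors' clustering of reporter-sorted sea anemone cells is annotated as Neural 1 with the suffix RPa. It was taken as every cell that the authors' cell table gives this fine annotation, which was 239 of 12352 cells (1.93%). All of them lie in the broad cluster Neural 1, which holds 3527 cells in 13 fine clusters, and cluster 20 made up 6.78% of it and was the 7th largest of the 13. A second fine cluster of Neural 1, cluster 10, carries the same suffix and held 357 cells. The files do not spell out RPa and hold no gene values that were used here, so the annotation could not be checked against marker genes and is used as a name only.

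The cells came from adults of the starlet sea anemone Nematostella vectensis, aged 6 to 8 weeks, that were heterozygous for a stable transgene in which 1 of 3 drivers, named Elav, FoxL2 or SoxC, makes the photoconvertible fluorescent protein KikGR. The animals were photoconverted, and 2, 4 or 7 days later the body wall with the mesenteries was dissociated and single reporter-positive cells were sorted for MARS-seq, which sequences the RNA of single cells from the wells of a plate. Every share below is therefore a share of sorted reporter cells and not of the tissue, and how many animals went into a dissociation is not stated in the labels. The replicate is the dissociation, and cells and libraries of 1 dissociation were pooled.

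The nervous system of sea anemones is a diffuse net of neurons without a brain, and cnidarian neurons are known for their use of neuropeptides as transmitters. Proteins of the Elav family bind RNA and mark many neurons, whereas SoxC and FoxL2 belong to the Sox and forkhead families of transcription factors. KikGR is made green and is switched to red by light. A cell that goes on making the reporter after the switch gains green protein beside the red.

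The 27 dissociations comprised 8 of Elav>KikGR (3, 2 and 3 at days 2, 4 and 7), 10 of FoxL2>KikGR (4, 4 and 2) and 9 of SoxC>KikGR (1, 3 and 5). The labels state 1% DMSO for 18 of them, which were 4 of Elav, 5 of FoxL2 and all 9 of SoxC. The other 9 have no stated treatment and are called untreated here. All Elav and SoxC cells were sorted through the gate named KikGR+, and FoxL2 cells through that gate, an epithelial-depleted gate or a gate named new. A library held 102 to 178 cells. Members came from 66 of 84 libraries, and no library held more than 15 of them (6.28%). They made up 117 of 6419 cells (1.82%) in libraries whose names end in O and 122 of 5933 cells (2.06%) in those ending in E. The table lists each well once, and no cell barcode was repeated among the wells of a demultiplexing pool. Doublet removal is not described in the sources used here.

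Cluster 20 was found in 26 of 27 dissociations and was most frequent in the Elav and FoxL2 lines. FoxL2 gave 145 of its 239 cells (60.7%), Elav 76 (31.8%) and SoxC 18 (7.53%), from 6137, 2764 and 3451 cells in all. In Elav the share of all cells ran from 1.05% to 4.36% with a median of 3.41%. In FoxL2 it ran from 0.347% to 4.43% with a median of 2.10%. In SoxC it ran from 0% to 1.16% with a median of 0.647%. The Elav and FoxL2 ranges overlapped almost wholly, while in Elav the lowest 2 values and in FoxL2 the lowest 2 values lay below the highest SoxC value. The dissociation without a member was SoxC 9, with 0 of 305 cells, which allows a share of up to 0.984%.

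The Elav dissociations had a mean share of all cells of 2.96% ± 1.38 (SD, n = 8). The FoxL2 mean was 2.30% ± 1.46 (SD, n = 10), and that of SoxC was 0.533% ± 0.355 (SD, n = 9). Elav exceeded SoxC by 2.43 percentage points (exact permutation test over dissociations, two-sided, p = 0.000123, adjusted p = 0.00111 over 45 fine clusters and 3 pairs of lines). FoxL2 exceeded SoxC by 1.77 points (exact permutation test, p = 0.00207, adjusted p = 0.00698). Elav and FoxL2 differed by 0.665 points, above the threshold (exact permutation test, p = 0.332, adjusted p = 0.464). Calls were common in these comparisons, with 62.2% of the 45 fine clusters called between Elav and SoxC, 55.6% between FoxL2 and SoxC, and 22.2% between Elav and FoxL2. Cluster 20 was 1 of 22 clusters called in both comparisons with SoxC.

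The higher share in Elav and FoxL2 was common to most of Neural 1. Of its 13 fine clusters, 12 were called higher in Elav than in SoxC, 9 higher in FoxL2 than in SoxC and 3 higher in Elav than in FoxL2, and none was called lower in these 3 pairs. The median difference over the 13 was 2.22 points for Elav minus SoxC, 1.42 for FoxL2 minus SoxC and 0.665 for Elav minus FoxL2, against -0.26, -0.15 and 0.053 over all 45 clusters. By size of the difference cluster 20 stood in place 6 of 13 for Elav minus SoxC, between cluster 13 (3.10 points) and cluster 18 (2.22 points). It stood in place 5 for FoxL2 minus SoxC, between cluster 10 (1.79 points) and cluster 11, annotated Class8-like (1.44 points). Neural 1 as a whole made up 44.0% ± 12.2 of a dissociation's cells in Elav (SD, n = 8). In FoxL2 it was 30.9% ± 13.65 (SD, n = 10) and in SoxC 11.3% ± 3.07 (SD, n = 9).

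Medium and gate are spread unevenly over the lines. With DMSO dissociations alone Elav exceeded SoxC by 1.53 points (exact permutation test, adjusted p = 0.0333) and FoxL2 exceeded SoxC by 0.563 points, which was no longer called (exact permutation test, adjusted p = 0.135). With the KikGR+ gate alone FoxL2 exceeded SoxC by 1.08 points (exact permutation test, adjusted p = 0.0104), and the Elav minus FoxL2 difference was 1.35 points (exact permutation test, p = 0.0320, adjusted p = 0.0658). With both restrictions, and with lines compared within days, the FoxL2 minus SoxC call was also lost, at 0.723 points (exact permutation test, adjusted p = 0.0886) and 1.43 points (permutation test, adjusted p = 0.0506).

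**Figure D1:**
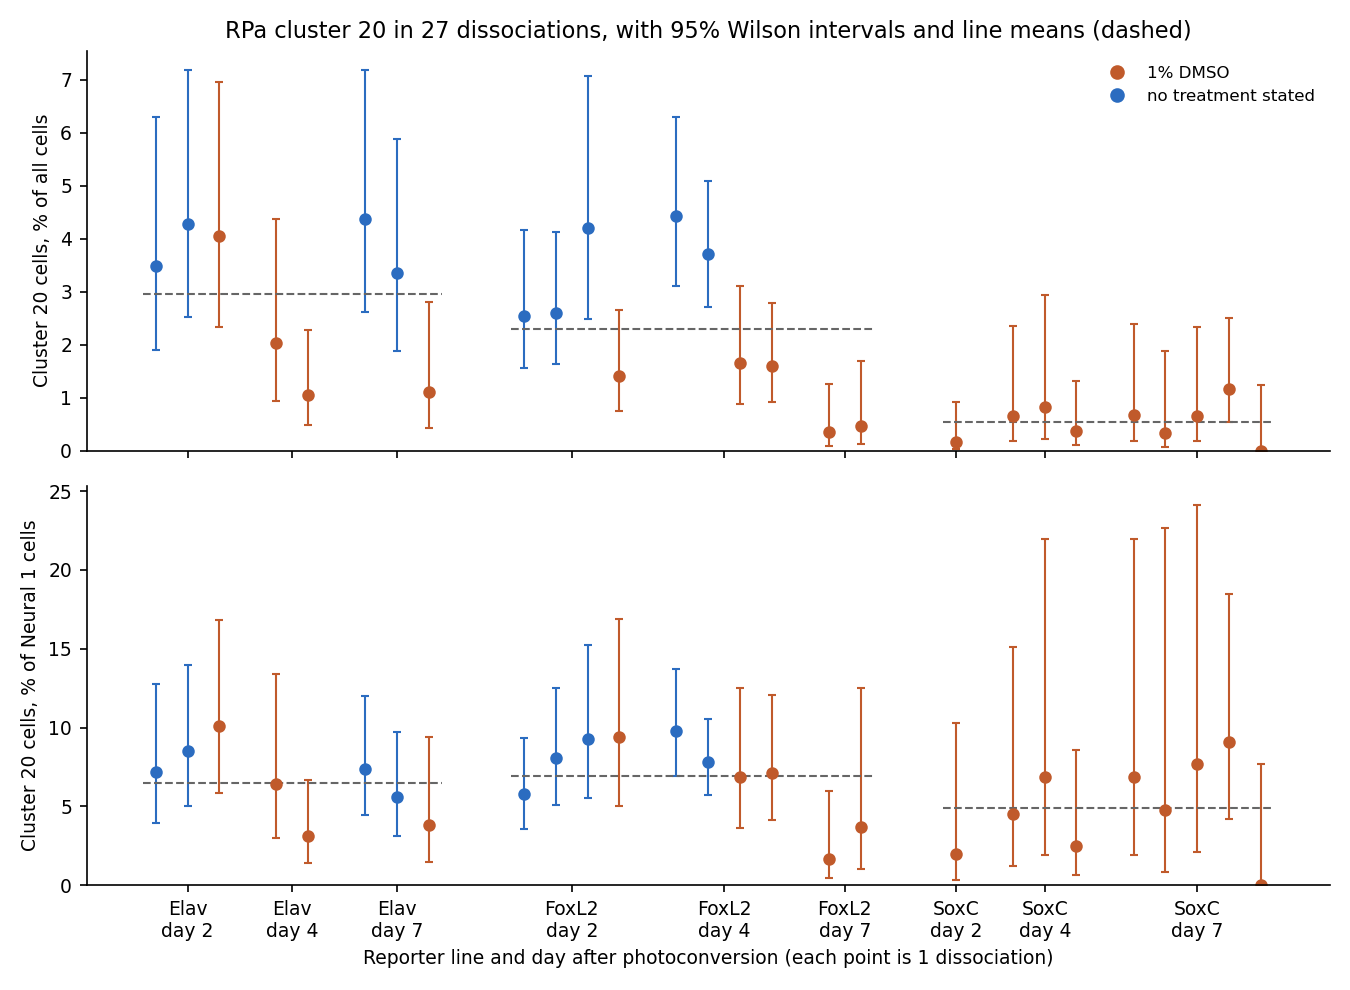
Share of cluster 20 in each of the 27 dissociations, in percent of all cells (upper panel) and of Neural 1 cells (lower panel), by reporter line and day after photoconversion. Points are dissociations, bars are 95% Wilson intervals that cover counting error only, colours give the medium and dashed lines are line means. All SoxC points of the upper panel lie at or below 1.16%, and those of the lower panel run from 0% to 9.09%. The line means lie between 0.533% and 2.96% in the upper panel and between 4.92% and 6.95% in the lower panel.

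Within Neural 1 the share of cluster 20 did not separate the lines. Elav had 6.52% ± 2.31 of Neural 1 cells in cluster 20 (SD, n = 8), FoxL2 6.95% ± 2.60 (SD, n = 10), and SoxC 4.92% ± 3.00 (SD, n = 9). The 3 ranges overlapped, from 3.14% to 10.1% in Elav, from 1.69% to 9.80% in FoxL2 and from 0% to 9.09% in SoxC, where SoxC 9 had 0 of 46 Neural 1 cells, which allows up to 6.52%. The differences were 1.59 points for Elav minus SoxC (exact permutation test, adjusted p = 0.480 over 13 clusters and 3 pairs), 2.03 points for FoxL2 minus SoxC (exact permutation test, adjusted p = 0.396) and -0.44 points for Elav minus FoxL2 (exact permutation test, adjusted p = 0.885). These exact permutation tests called 0 of 13 clusters (0%) in each pair, and 1, 5 and 1 clusters had an unadjusted p under 0.05 in the order just given. By size of the difference cluster 20 stood in place 5, 8 and 11 of 13, and in Elav minus FoxL2 it lay between cluster 43 (-0.50 points) and cluster 13 (0.27 points). All SoxC cells were from DMSO dissociations and the KikGR+ gate. With DMSO dissociations alone the difference from SoxC was 0.948 points for Elav and 0.834 for FoxL2 (exact permutation tests, adjusted p = 0.795 each), and FoxL2 minus SoxC was 0.704 with the KikGR+ gate alone (exact permutation test, adjusted p = 0.885). Without the dissociation SoxC 9, Elav minus SoxC was 0.977. The sign of the Elav minus FoxL2 difference turned with the KikGR+ gate alone (0.889 points) and without the dissociation Elav 24 (0.045 points).

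Sampling of few cells gave a spread of similar size. Binomial counting alone gave an expected SD of 2.08, 2.23 and 3.46 points within Neural 1 in Elav, FoxL2 and SoxC, against the observed 2.31, 2.60 and 3.00. Of all cells the expected SD was 0.900, 0.641 and 0.386 points against the observed 1.38, 1.46 and 0.355. The observed spread thus exceeded counting most in FoxL2, for the share of all cells. In SoxC, where a dissociation held 21 to 81 Neural 1 cells, the depth could not resolve differences of a few points within Neural 1.

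**Figure D2:**
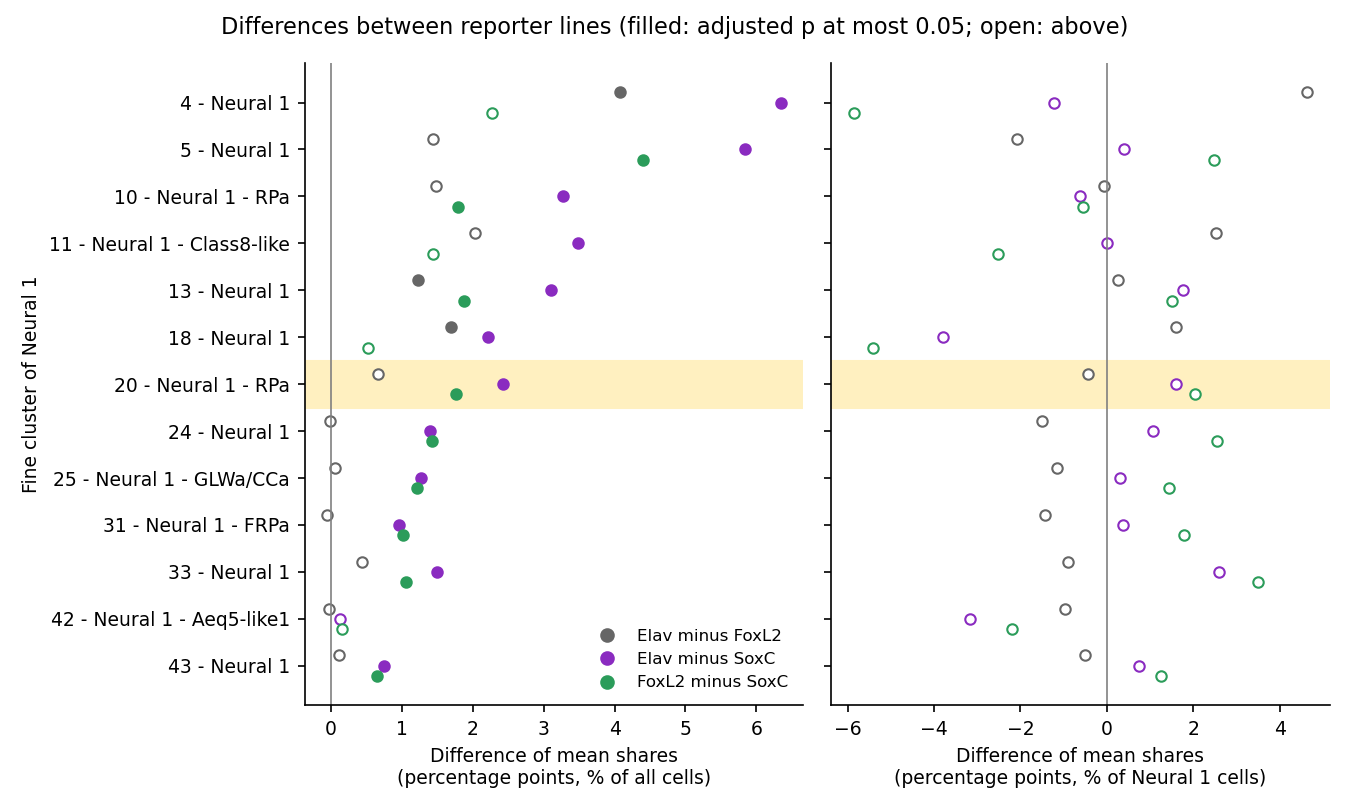
Differences of mean shares between reporter lines for the 13 fine clusters of Neural 1, in percentage points of all cells (left) and of Neural 1 cells (right). Each colour is a pair of lines, filled points have an adjusted p of at most 0.05 and the shaded band marks cluster 20, which is filled at 2.43 and 1.77 points on the left and open for all 3 pairs on the right.

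Set against cluster 10, the other cluster with the RPa suffix, cluster 20 was the smaller in all 3 lines. In dissociations with at least 5 cells of both clusters together, cluster 20 made up 37.8% ± 12.0 of these cells in Elav (SD, n = 8). FoxL2 had 39.4% ± 15.0 (SD, n = 10), and SoxC 21.9% ± 17.1 (SD, n = 6). In these dissociations the share of cluster 20 ran from 22.2% to 57.1% (median 36.9%) in Elav, from 10.5% to 58.7% (median 41.25%) in FoxL2 and from 0% to 50.0% (median 19.6%) in SoxC. Pooled over all cells of both clusters, without the minimum, it was 38.0% in Elav, 43.7% in FoxL2 and 28.1% in SoxC. None of the pairs of lines passed, with 16.0 points for Elav minus SoxC and 17.6 for FoxL2 minus SoxC (exact permutation tests, both adjusted p = 0.167 over 5 values) and -1.59 points for Elav minus FoxL2 (exact permutation test, adjusted p = 0.809). The sign of the last turned without Elav 24 (0.637), Elav 27 (0.0024), FoxL2 13 (0.551) or FoxL2 18 (0.119). The slope over days was -2.45 points per day (permutation test, adjusted p = 0.170), and the DMSO minus untreated difference was -5.23 points (exact permutation within strata, adjusted p = 0.475). These outcomes rested in part on the dissociation SoxC 8, in which 6 of 12 RPa cells were in cluster 20. Without it the Elav minus SoxC difference was 21.6 points, the FoxL2 minus SoxC difference 23.2 points and the slope -3.58 points per day, and all 3 passed (permutation tests, adjusted p = 0.0183 each). The minimum of 5 cells had left out SoxC 5, 6 and 7, all of day 7. They had 2 of 2, 1 of 4 and 2 of 4 RPa cells in cluster 20. Without SoxC 8, the only SoxC dissociation of day 7 left was SoxC 9, with 0 of 5. Pooled without the minimum, day 7 had 40.7% in SoxC, 38.7% in Elav and 14.3% in FoxL2. In other settings the differences were smaller. With at least 10 RPa cells per dissociation they were 6.17 points for Elav minus SoxC and 9.68 for FoxL2 minus SoxC (exact permutation tests, adjusted p = 0.667 each), and FoxL2 minus SoxC was 9.02 points with the KikGR+ gate and 8.11 with DMSO dissociations alone (exact permutation tests, adjusted p = 0.340 and 0.531). The slope was -1.51 without the dissociation FoxL2 16.

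Over the days after photoconversion no change of cluster 20 passed the test. In Elav its share of all cells was 3.48%, 4.28% and 4.05% at day 2, then 2.03% and 1.05% at day 4, and 4.36%, 3.34% and 1.1% at day 7. In FoxL2 it was 2.55%, 1.41%, 2.60% and 4.21% at day 2, then 4.43%, 3.72%, 1.65% and 1.60% at day 4, and 0.347% and 0.469% at day 7. In SoxC it was 0.163% at day 2, then 0.654%, 0.816% and 0.360% at day 4, and 0.662%, 0.336%, 0.647%, 1.16% and 0% at day 7. The 2 FoxL2 dissociations of day 7 were lower than the other 8 of that line, and both were DMSO dissociations sorted through the KikGR+ gate only. The DMSO dissociations of FoxL2 at the earlier days had 1.81% (day 2), 1.65% and 2.01% (both day 4) in the KikGR+ gate.

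The common slope within lines was -0.19 percentage points of all cells per day (permutation of days within lines, two-sided, 100000 resamples, p = 0.111, adjusted p = 0.881). This permutation test called 0 of 45 clusters (0%), and 3 had an unadjusted p under 0.05. In size this slope was the largest among the 13 Neural 1 clusters, followed by clusters 11 (-0.14) and 10 (-0.12), and the median over the 13 was -0.065. Within Neural 1 the slope of cluster 20 was -0.38 points per day (permutation test, p = 0.151, adjusted p = 0.930), with 0 of 13 clusters called (0%) and none at an unadjusted p under 0.05 in the same permutation test. Clusters 18 (0.41) and 10 (-0.25) stood next to it in size. All Elav dissociations of day 4 and all FoxL2 dissociations of day 7 were DMSO dissociations, and within line and medium the slope of the share of all cells was -0.091 points per day (permutation test, adjusted p = 0.899). Among untreated dissociations alone it had the opposite sign (0.073 points per day). The untreated means of Elav were 3.88% at day 2 and 3.85% at day 7. Those of FoxL2, which had no untreated day 7, were 3.12% at day 2 and 4.08% at day 4 with gates pooled.

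By line the slope within Neural 1 was -0.55 points per day in Elav, -1.04 in FoxL2 and 0.58 in SoxC. The difference of slopes between FoxL2 and SoxC, -1.62 points per day, had the smallest p of the 6 differences computed and did not pass adjustment over them (permutation test, p = 0.0259, adjusted p = 0.155). Day 2 of SoxC was a single dissociation with 1 member among 51 Neural 1 cells.

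The share of cluster 20 among all cells was lower in DMSO dissociations in 3 of the 4 combinations of line and day that hold both media. At day 2 in Elav the DMSO value of 4.05% lay between the untreated values of 3.48% and 4.28%. At day 7 in Elav the DMSO value was 1.1% and the untreated values were 4.36% and 3.34%. At day 2 in FoxL2 it was 1.41% against 2.55%, 2.60% and 4.21%. At day 4 in FoxL2 the values were 1.65% and 1.60% against 4.43% and 3.72%. With gates pooled, and apart from Elav day 2, no DMSO value reached an untreated value of the same line and day. The untreated FoxL2 dissociations all held epithelial-depleted cells and those with DMSO held none. In the KikGR+ gate alone FoxL2 had 1.81% with DMSO against 2.22% untreated at day 2. At day 4 it had 1.65% and 2.01% against 1.91% and 2.47%, so a DMSO value exceeded an untreated one there. Pooled over days and gates, the DMSO dissociations of FoxL2 had 1.1% ± 0.636 (SD, n = 5) beside 3.50% ± 0.887 (SD, n = 5) in the untreated ones. Those of Elav had 2.06% ± 1.40 beside 3.87% ± 0.527 (SD, n = 4 each).

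Within line and day the DMSO minus untreated difference was -1.74 points of all cells over 14 dissociations, which did not pass adjustment (exact permutation within strata, two-sided, p = 0.0185, adjusted p = 0.0694). This exact test has 216 arrangements and a smallest possible p of 0.00463, and it called 0 of 45 clusters (0%) while 18 had an unadjusted p under 0.05. Permuted within lines over all days the difference was -2.14 points and passed (exact permutation, adjusted p = 0.00306). That setting does not hold the day fixed. All Elav dissociations of day 4 and all FoxL2 dissociations of day 7 were DMSO dissociations, so day and medium are mixed in it. With the KikGR+ gate alone it was -0.83 points (exact permutation, adjusted p = 0.260), and all 5 untreated FoxL2 dissociations, but none with DMSO, held epithelial-depleted cells. Cluster 10 moved by -1.88 points (exact permutation, adjusted p = 0.110) and cluster 18 by -1.23 (exact permutation, adjusted p = 0.0893), and the median over the 13 Neural 1 clusters was -1.02 against -0.084 over all 45.

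Within Neural 1 the DMSO difference of cluster 20 was -0.13 points, the smallest in size of the 13 clusters (exact permutation within strata, p = 0.889, adjusted p = 0.889). The same exact permutation test called 0 of 13 (0%), and 2 had an unadjusted p under 0.05. The sign turned without Elav 25 (0.203), Elav 27 (0.563), FoxL2 12 (0.230) or FoxL2 14 (0.030). The DMSO value was 10.1% against 7.19% and 8.50% in Elav at day 2, and 3.81% against 7.37% and 5.58% at day 7. It was 9.38% against 5.81%, 8.06% and 9.29% in FoxL2 at day 2, and 6.87% and 7.14% against 9.80% and 7.79% at day 4. The DMSO values were thus above the untreated ones at day 2 in both lines and below them at day 7 in Elav and at day 4 in FoxL2, a contrast between days that was not tested. Cluster 25, annotated GLWa/CCa, stood next to it (0.19 points), and cluster 10 differed by 1.42 points (exact permutation, adjusted p = 0.594).

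Of sorted wells, 75.2% ± 5.59 (SD, n = 18) of DMSO dissociations and 82.8% ± 4.33 (SD, n = 9) of untreated ones were in the cell table, and all 9 SoxC dissociations are among the former. The difference was not tested, and at day 2 in Elav the DMSO value of 76.3% lay between the untreated 75.5% and 80.0%. Counted per sorted well, the DMSO difference of cluster 20 was -1.40 points (exact permutation within strata, adjusted p = 0.117). The wells of untreated dissociations were all listed in 1 of 4 demultiplexing pools that held no DMSO dissociation, so medium and pool cannot be told apart.

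**Figure D3:**
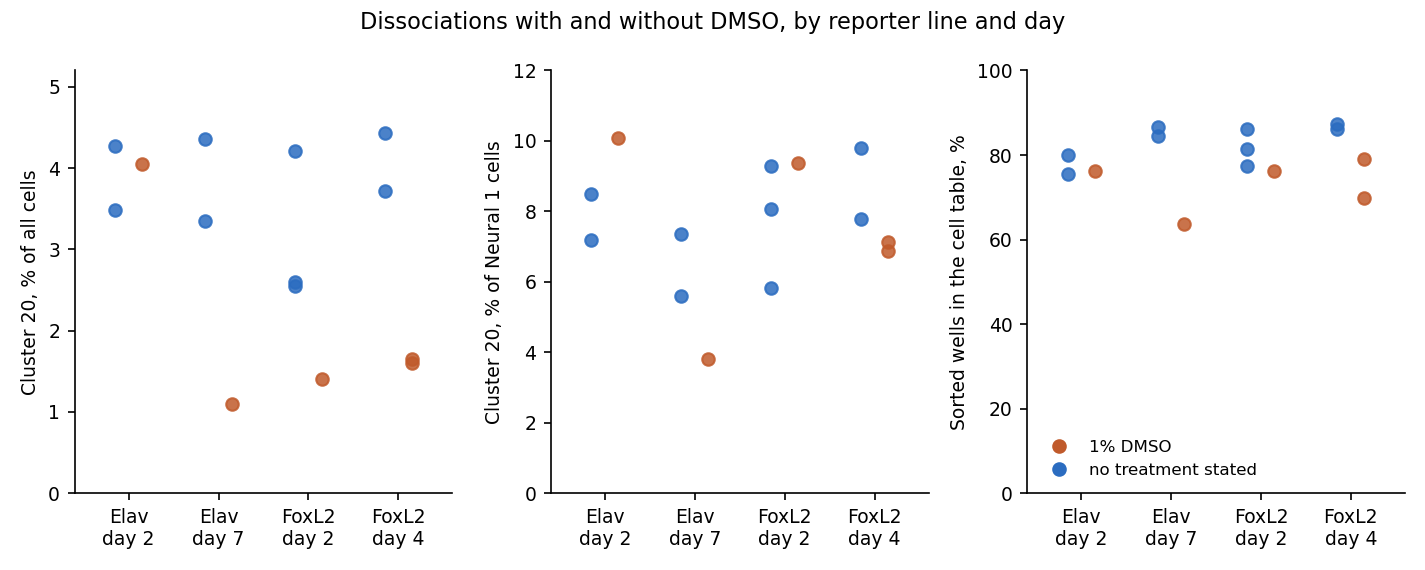
Cluster 20 in percent of all cells (left) and of Neural 1 cells (middle), and the percent of sorted wells that are in the cell table (right), for the 4 combinations of line and day that hold both media. Each point is 1 dissociation and colours give the medium. On the left, with gates pooled, the DMSO points lie below the untreated ones except at day 2 in Elav, where 4.05% lies between 3.48% and 4.28%.

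In the FoxL2 line cluster 20 made up 97 of 2568 cells (3.78%) of the epithelial-depleted gate, 41 of 2912 (1.41%) of the KikGR+ gate and 7 of 657 (1.07%) of the gate named new. These pools differ in medium, since all epithelial-depleted cells were untreated, all cells of the gate named new were from DMSO dissociations, and 2278 of the 2912 KikGR+ cells were too. Untreated KikGR+ cells of FoxL2 held 14 members of 634 (2.21%), and untreated Elav cells, all of the KikGR+ gate, 48 of 1241 (3.87%). With media pooled, cluster 20 made up 8.83% of the FoxL2 Neural 1 cells in the epithelial-depleted gate and 5.47% in the KikGR+ gate. In the gate named new it was 7.07%. In the 3 dissociations sorted through both of the first gates, all untreated, the epithelial-depleted gate had the higher share each time. The share of all cells was 2.22% in the KikGR+ gate and 2.92% in the epithelial-depleted gate in dissociation 10, 1.91% and 5.23% in dissociation 12, and 2.47% and 3.96% in dissociation 13.

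The mean paired difference was 1.84 points of all cells (exact sign-flip permutation test, two-sided, p = 0.25, adjusted p = 1). With 3 pairs 0.25 is the smallest p this exact test can give, so 0 of 45 clusters were called (0%), and none had an unadjusted p under 0.05. Within Neural 1 the shares were 5.15% and 6.56% in dissociation 10, 4.29% and 11.5% in dissociation 12, and 5.26% and 8.27% in dissociation 13. That mean difference was 3.88 points (exact sign-flip permutation test, p = 0.25, adjusted p = 0.542), with 0 of 13 called (0%) and none at an unadjusted p under 0.05. Without dissociation 12 the means were 1.09 points of all cells and 2.21 points within Neural 1. Cluster 25 stood just above cluster 20 in size on both scales, with 2.01 points of all cells and 4.40 within Neural 1. Clusters 18, 25, 33 and 43 were also higher in all 3 pairs on both scales, and cluster 4 was lower in all 3. The median over the 13 Neural 1 clusters was 0.61 points of all cells and 1.33 within Neural 1. Cluster 10 differed by -0.58 points of all cells and by -1.53 points within Neural 1 (exact sign-flip permutation tests, adjusted p = 1 and 0.722).

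Cluster 20 thus held a larger part of the RPa cells in the epithelial-depleted gate in all 3 pairs. Its share of the cells of clusters 10 and 20 was 30.4% and 36.4% in dissociation 10, 23.1% and 54.2% in dissociation 12, and 50.0% and 60.0% in dissociation 13, with the KikGR+ gate first. The KikGR+ values of dissociations 12 and 13 rest on 13 and 8 such cells. The 2 dissociations that were sorted through the epithelial-depleted gate alone had 54.8% and 50.0%. The gate named new was used in 2 DMSO dissociations, where cluster 20 made up 0.980% of all cells against 1.81% in the KikGR+ gate in dissociation 11, and 1.14% against 2.01% in dissociation 15. No test was run on the gate named new.

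**Figure D4:**
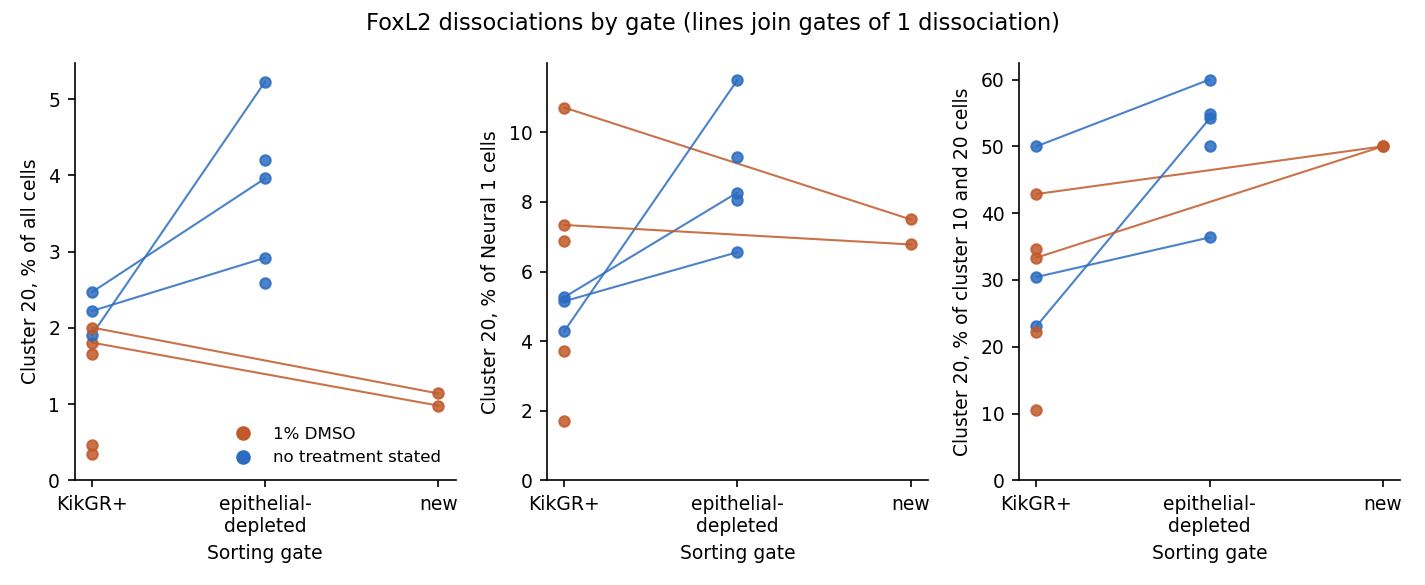
FoxL2 dissociations by sorting gate, with cluster 20 in percent of all cells (left), of Neural 1 cells (middle) and of the cells of clusters 10 and 20 (right). Each point is the cells of 1 dissociation in 1 gate, lines join gates of the same dissociation and colours give the medium. The 3 lines from the KikGR+ to the epithelial-depleted gate rise in every panel.

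A reporter colour class was given for 126 of the 239 members, all from the KikGR+ gate, where 9 further members had none. Of the 126, 21 were green (16.7%), 70 orange (55.6%) and 35 red (27.8%). The other Neural 1 cells had 344 green (16.3%), 1118 orange (53.1%) and 642 red (30.5%) among 2104. The rule that set the classes is not given in the sources used here. Classes of single dissociations rest on few cells, and 11 dissociations held at least 5 coloured members, 7 of Elav, 3 of FoxL2 and 1 of SoxC.

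In the Elav line green members were most frequent at day 7. Green were 0 of 10, 1 of 13 and 1 of 11 coloured members in the 3 dissociations of day 2, 2 of 6 and 0 of 6 at day 4, and 6 of 14, 4 of 11 and 2 of 4 at day 7. Pooled over dissociations this was 5.88% at day 2, 16.7% at day 4 and 41.4% at day 7, with 95% Wilson intervals of 1.63% to 19.1%, 4.70% to 44.8% and 25.5% to 59.3% that cover counting error only. The other Neural 1 cells of Elav were green at 10.3%, 12.5% and 40.0% on the same days. Red members numbered 8 of 34 at day 2, 1 of 12 at day 4 and 0 of 29 at day 7. The last count allows up to 10.3%, or up to 11.7% by the 95% Wilson interval, for counting error only. Of the other Neural 1 cells 49 of 462 (10.6%) were red at day 7, which that interval covers.

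In the FoxL2 line members were mostly orange or red. Green were 1 of 7 at day 2, 0 of 24 at day 4, which allows up to 12.5%, and 0 of 4 at day 7. Red were 4 of 7, 10 of 24 and 3 of 4. In the SoxC line 16 members had a class, with 0 green of 1 at day 2, 1 of 4 at day 4 and 3 of 11 at day 7, and with 1, 3 and 5 red. Over all days green made up 2.86% of coloured members in FoxL2 and 2.83% of other Neural 1 cells, against 21.3% and 23.3% in Elav and 25.0% and 18.9% in SoxC.

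Within dissociations the colours of cluster 20 did not differ from those of other Neural 1 cells beyond the spread. The green share differed by a mean of 1.18 points ± 8.49 (SD, n = 11), above in 5 dissociations, below in 5 and equal in 1 (exact sign-flip permutation test, two-sided, p = 0.678, adjusted p = 0.963). That sign-flip permutation test called 0 of the 9 Neural 1 clusters with enough coloured cells (0%), and none had an unadjusted p under 0.05. Without SoxC 8 the mean was -0.68 points. The red share differed by -4.57 points ± 16.0 (SD, n = 11), below in 7 and above in 4 (exact sign-flip permutation test, p = 0.369, adjusted p = 0.664), with 2 of 9 clusters called (22.2%). Cluster 10 differed by 3.74 points in green and 1.26 points in red (sign-flip permutation tests, adjusted p = 0.844 and 0.740). Cluster 5, next above cluster 20 in the size of its red difference, was called at 9.43 points (sign-flip permutation test, adjusted p = 0.0351).

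The green share of cluster 20 had a slope of 5.57 points per day within lines, which did not pass (exact permutation of days within lines, two-sided, p = 0.0825, adjusted p = 0.278 over 37 fine clusters). This permutation test called 2 of the 37 clusters (5.41%). The slope was upward in all 9 Neural 1 clusters tested, with a median of 4.77 points per day against 4.03 over the 37. Cluster 20 stood in place 3 of the 9, between clusters 24 (5.93) and 11 (5.25), and cluster 10 had 3.14. Among Elav dissociations alone the slope was 6.80 points per day (exact permutation test, p = 0.0333, adjusted p = 0.0714). Among DMSO dissociations alone it was -2.27 (exact permutation test, adjusted p = 0.972). That setting covers only days 2 and 4 of Elav and FoxL2, so it cannot show whether the green share rose by day 7. The DMSO dissociation of Elav at day 7, with 2 green of 4 coloured members, was below the minimum of 5.

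Between lines, within days, the green share of cluster 20 differed by 2.80 points for Elav minus FoxL2 (exact permutation, adjusted p = 1), where 2 of 25 clusters tested were called (8%). For Elav minus SoxC it differed by 6.28 points (exact permutation, adjusted p = 0.812), with 0 of 27 clusters called (0%) by this permutation test and 3 at an unadjusted p under 0.05. The latter sets the single SoxC dissociation with enough coloured members against the Elav dissociations of its day, with 3 arrangements, so its p could not come near the threshold. The Elav minus FoxL2 comparison had 24 arrangements. Without the dissociation Elav 23 the Elav minus FoxL2 difference was -6.33 points. FoxL2 and SoxC could not be compared, as they shared no day with enough coloured members.

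**Figure D5:**
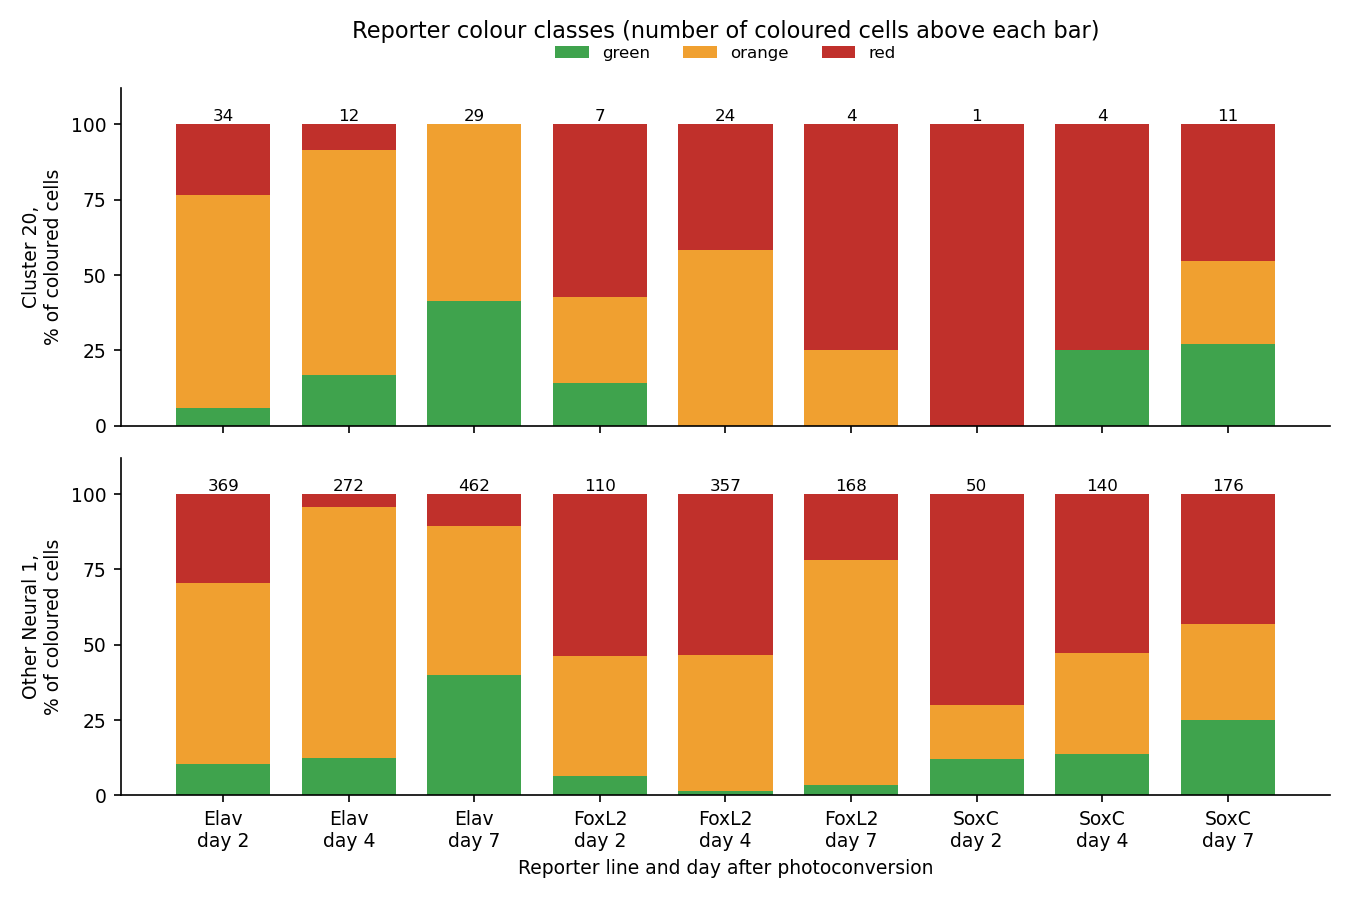
Reporter colour classes of coloured cells by reporter line and day, in percent, for cluster 20 (upper panel) and for the other Neural 1 cells (lower panel), pooled over the dissociations of a group. Numbers above the bars are coloured cells. In Elav the green part of cluster 20 is 5.88%, 16.7% and 41.4% at days 2, 4 and 7, beside 10.3%, 12.5% and 40.0% in the other Neural 1 cells.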

How the data were processed

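The authors' deposited cell table holds no numeric measurement, only 1 line per cell with its library, gate, fine and broad cluster and reporter colour class, all categories (unit: other). Reads were processed with STAR 2.7.10b and STARsolo, per the submitters' processing notes. The cell filters, clustering settings and rule for the colour classes are not given in the sources used here, and depth per cell was not used. The deposited well lists gave the sorted wells of 76 libraries.

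Line, day, medium and dissociation were taken from the labels and differed from the table in 0 of 12352 cells. Shares were computed per dissociation, and precision was set by its cells. Members and comparisons were chosen with earlier results of these data known. Pairs of lines were compared by exact permutation over dissociations, days by permutation within lines (100000 resamples, or all arrangements where fewer), media within line and day, and gates and colours by sign flips within dissociations (100000 random flips where more exist). P-values are two-sided and adjusted (Benjamini-Hochberg) over all fine clusters that a comparison covers, with a threshold of 0.05. The exceptions are the share of RPa cells, adjusted over 5 values, and the differences of slopes between lines, adjusted over 6. All p-values compare an observed difference or slope with rearrangements of labels or days over dissociations, or of the signs of paired differences. Colour shares needed at least 5 coloured cells of a cluster in a dissociation, and a cluster at least 6 such dissociations. For a count of 0 the limit is 3 counts of the total. The clusters named are cluster 20, cluster 10 and those next above and below cluster 20 by size among Neural 1. The tests were tested on simulated data (Python 3.11.15, numpy 2.4.6, pandas 2.3.3, scipy 1.17.1). Alternatives added after the data were seen were untreated dissociations alone (with or without the KikGR+ gate), counts per sorted well and Elav alone.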

Additional observations from a re-analysis of the deposited data

How the results depend on the processing

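Of 568 alternatives over 22 results, 128 left the value as it was, mostly by leaving out a dissociation that does not enter the comparison, and say nothing about stability. Of the other 440, 410 kept the direction and side of the threshold. The cause of the others was not tested. For the share of all cells, FoxL2 minus SoxC lost its call with DMSO dissociations only (0.563 points), with DMSO and the KikGR+ gate (0.723) and within days (1.43), DMSO minus untreated passed within lines over all days (-2.14), and the day slope was 0.073 among untreated dissociations. Within Neural 1, Elav minus FoxL2 was 0.889 with the KikGR+ gate, 0.114 with DMSO only and 2.26 with untreated dissociations and that gate, and DMSO minus untreated was 1.60 with that gate. For cluster 20 among RPa cells, Elav minus FoxL2 was 6.95 with the KikGR+ gate and 3.68 with DMSO only, DMSO minus untreated was 1.16 with that gate, and the day slope was 0.450 among untreated dissociations. For the colours, the green difference from other Neural 1 cells was -1.40 in Elav alone, the red difference 0.684 with DMSO only and the green day slope -2.27 with DMSO only. That last slope rests on days 2 and 4 alone.

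Leaving out each dissociation in turn gave -1.02 to 0.045 points for Elav minus FoxL2 within Neural 1 and -0.84 to 0.563 for DMSO minus untreated within Neural 1. Among RPa cells it gave -4.81 to 0.637 for Elav minus FoxL2, 11.6 to 21.6 for Elav minus SoxC, 13.2 to 23.2 for FoxL2 minus SoxC and -3.58 to -1.51 for the day slope. It gave -0.68 to 2.46 for the paired green difference and -6.33 to 16.7 for Elav minus FoxL2 in green. For the gates it gave 1.09 to 2.41 points of all cells and 2.21 to 5.11 within Neural 1. Gates and colours were compared as pairs within dissociations. Between lines or media no paired analysis was possible because they share no replicate numbers. Precision was limited by the 18 members in SoxC and the 126 with a colour class.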
